A study of Mus musculus with 4 samples.

Results

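The S100 genes encode a family of small calcium-binding proteins, and 10 of them were followed here in mouse liver: S100a1, S100a4, S100a6, S100a8, S100a9, S100a10, S100a11, S100a13, S100a14 and S100g. They were picked by symbol, and a gene was measured where an array probe set was annotated with its symbol and no other. This held for 9 of the 10, out of 18194 genes named on the array. The only probe set that names S100a11 also carries the symbols Gm12854 and S100a11-ps, so S100a11 has no value of its own here. The mice were 10 months old and fell into 4 groups. These were mice given the liver carcinogen diethylnitrosamine (DEN) and then fed the bile acid cholic acid (CA) at 0.2%; mice given DEN and then control diet; mice without DEN on the CA diet; and mice without DEN on control diet. Livers of 3 to 5 mice were pooled for each group and run on 1 array, and neither the strain nor the sex, nor the share of tumour tissue in a pool, is given in the sources used here. There was no replicate, so no test could be made, the spread between mice is not known, and every difference below is that of 2 pools.

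S100 proteins bind calcium through paired EF-hand loops, mostly work as dimers, and act both inside cells, where they bind annexins and cytoskeletal proteins, and outside them. S100a8 and S100a9 form calprotectin, which neutrophils and monocytes carry in large amounts and release in inflammation, where it can signal through Toll-like receptor 4 and the receptor Ager. Others mark mesenchymal cells (S100a4, S100a6) or epithelia (S100a14). In mice, 9 of the 10 genes lie on chromosome 3 and S100g lies on the X chromosome.

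On the values as deposited, 4 of the 9 measured genes were at least 2-fold higher after DEN on the control diet. Of all named genes 3.82% were. The 4 were the calprotectin genes S100a8 and S100a9, and S100a6 and S100a4. Their promoters are shown for this reason. S100a4 was above the background level used here on the array with DEN and control diet only. Each sequence runs 5′ to 3′ from 250 bases before to 50 bases after the annotated gene start (RefSeq, GRCm38.p6). Capitals mark matches to the AP-1 motif TGANTCA, the C/EBP motif TTNNGNAA or the letters TATAAA (written as TATA match here) on either strand.
S100a8, chr3:90668821-90669120, plus strand: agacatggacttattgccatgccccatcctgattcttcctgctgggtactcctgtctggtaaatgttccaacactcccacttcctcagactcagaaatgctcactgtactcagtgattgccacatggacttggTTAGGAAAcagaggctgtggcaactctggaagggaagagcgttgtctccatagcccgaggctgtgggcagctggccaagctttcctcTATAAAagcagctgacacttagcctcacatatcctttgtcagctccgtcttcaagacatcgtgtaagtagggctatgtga
S100a9, chr3:90695672-90695971, minus strand: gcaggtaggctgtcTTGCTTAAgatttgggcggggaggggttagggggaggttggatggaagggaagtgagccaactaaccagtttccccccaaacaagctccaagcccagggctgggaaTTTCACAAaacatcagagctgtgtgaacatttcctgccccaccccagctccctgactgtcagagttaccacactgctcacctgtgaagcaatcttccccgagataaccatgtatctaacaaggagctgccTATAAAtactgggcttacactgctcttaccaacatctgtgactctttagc
S100a6, chr3:90612644-90612943, plus strand: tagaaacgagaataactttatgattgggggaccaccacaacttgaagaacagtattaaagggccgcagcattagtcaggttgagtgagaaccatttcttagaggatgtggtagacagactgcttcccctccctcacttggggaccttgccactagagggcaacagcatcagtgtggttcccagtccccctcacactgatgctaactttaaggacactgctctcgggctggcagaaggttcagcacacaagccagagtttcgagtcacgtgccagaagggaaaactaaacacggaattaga
S100a4, chr3:90603520-90603819, plus strand: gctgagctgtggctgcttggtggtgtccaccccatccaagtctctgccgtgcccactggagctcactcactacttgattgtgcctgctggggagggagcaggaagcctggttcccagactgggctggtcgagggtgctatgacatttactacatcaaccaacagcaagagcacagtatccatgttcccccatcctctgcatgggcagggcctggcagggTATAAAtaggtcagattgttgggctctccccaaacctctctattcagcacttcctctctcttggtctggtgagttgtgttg
The S100a8 promoter held 1 C/EBP match and 1 TATA match, and the S100a9 promoter held 2 C/EBP matches and 1 TATA match. The TATA match of S100a9 began at the annotated gene start and not before it. The S100a4 promoter held 1 TATA match and no C/EBP match. The S100a6 promoter held none of the 3 motifs. Of the promoters not shown, that of S100g, a gene under 4.86 on every array, held 5 C/EBP matches and 1 TATA match. That of S100a11 held 2 AP-1 matches, and those of S100a1 and S100a13 held none of the 3 motifs. Of 32851 mouse promoters of the same length, 40.7% held a C/EBP match, 13.6% a TATA match and 7.81% an AP-1 match. None of the 4 sequences held an AP-1 match, a match to the STAT motif TTCNNNGAA (8.30% of promoters) or to the NF-kB motif (8.46%). These letter matches are a description of the window and do not show binding.

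Values are log2 levels, so that a difference of 1 is 2-fold, and the levels of different probe sets cannot be set against each other. Levels below 4.86, the median over all probe sets, were treated as near background. Folds involving them were worked out after raising them to 4.86 and are written as "at least". By the array's naming, the probe sets used for S100a8, S100a1 and S100a10 hold probes that other transcripts can share. The hybridization control probe sets, which carry no mouse RNA, differed by at most 0.20 for DEN on the control diet and 0.37 for DEN on the CA diet. They differed by at most 0.31 for the CA diet without DEN and 0.27 for the CA diet after DEN. All 7 measured hepatocyte markers were above 4.86 on every array, with Alb, serum albumin, between 14.74 and 14.82. Of these 7, Tat, a tyrosine aminotransferase, was past 2-fold, lower for DEN on the CA diet (-1.65) and for the CA diet after DEN (-1.24), and Cps1, a urea cycle enzyme, differed by -0.31 and -0.48 after DEN on the control and CA diets.

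S100a8 and S100a9, the calprotectin subunits of neutrophils and monocytes, were higher after DEN on both diets. S100a8 stood at 6.57 in the pool with DEN and CA diet, 6.19 in the pool with DEN and control diet, 4.82 in the CA diet pool without DEN and 3.71 in the control diet pool without DEN. Only the pair of DEN arrays was above 4.86 for S100a8. After DEN it was at least 2.53-fold higher on the control diet and at least 3.27-fold higher on the CA diet, with log2 differences of 2.48 and 1.75 before low levels were raised. S100a9 stood at 6.99 with DEN and CA diet, 6.37 with DEN and control diet, 5.22 with CA diet alone and 4.59 with neither treatment. Its order over the arrays was that of S100a8. After DEN it was at least 2.86-fold higher on the control diet (1.78) and 3.41-fold higher on the CA diet (1.77).

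**Figure D1:**
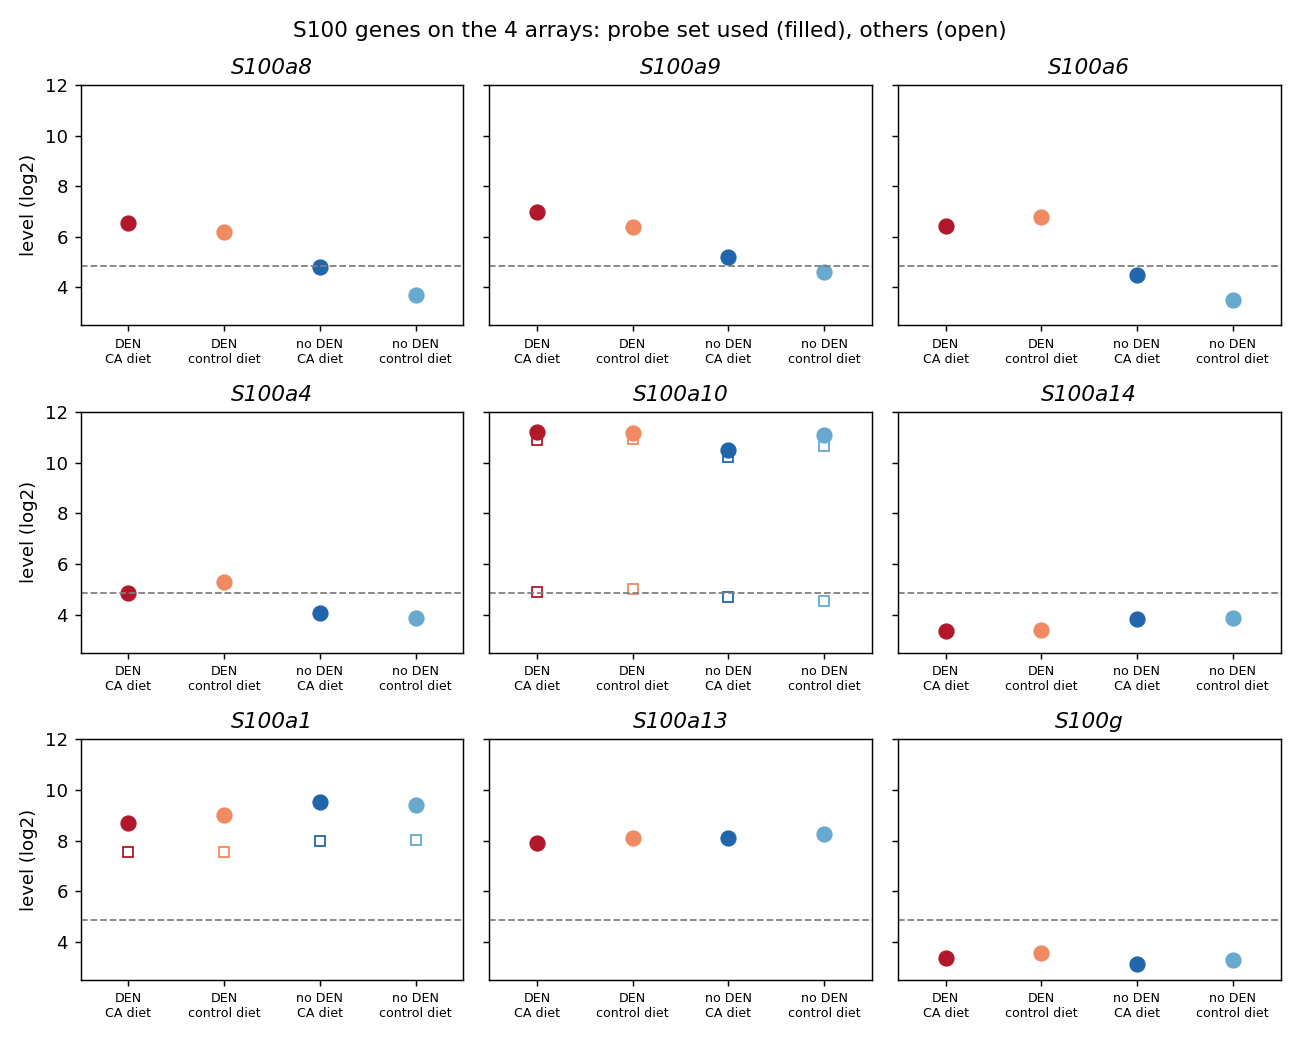
Log2 level of each measured S100 gene (vertical axis) on the 4 arrays (horizontal axis), with filled circles for the probe set used, open squares for other probe sets of the gene and a dashed line at 4.86. S100a8, S100a9, S100a6 and S100a4 are higher on both DEN arrays than on both arrays without DEN, while S100a14 and S100g lie under the line on every array.

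The diet differences of this pair were smaller than the DEN differences. On the CA diet without DEN, S100a8 was higher by 1.11, but both its levels were under 4.86, so no fold is given. S100a9 was at least 1.29-fold higher there (0.63). After DEN, on the CA diet, S100a8 was 1.30-fold higher (0.37) and S100a9 1.53-fold higher (0.62). The diet effect after DEN minus that without DEN was -0.73 for S100a8 and -0.01 for S100a9 on the values as deposited. With low levels raised to 4.86 it was 0.37 and 0.25, so neither its direction nor its size is settled for S100a8 or S100a9. Both genes were highest in the pool with both treatments, which against the pool with neither was at least 3.27-fold higher for S100a8 and at least 4.39-fold higher for S100a9.

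The other myeloid markers were read beside these values. Of 9 measured neutrophil markers, 0 were 2-fold different in either direction in any of the 4 comparisons by treatment. 6 of them lay under 4.86 on every array: Cxcr2, Mpo, Camp, Ltf, Mmp8 and Mmp9, which encode a chemokine receptor, granule proteins and proteases of neutrophils. The summed log2 level of the 9 was 41.45 with DEN and CA diet, 41.13 with DEN and control diet, 42.67 with CA diet alone and 42.65 with neither. With low levels raised to 4.86 it was 45.51, 45.52, 45.49 and 45.67. Only Csf3r, the receptor for the neutrophil growth factor G-CSF, was above 4.86 on all arrays, at 6.66, 6.68, 6.56 and 6.61 in the same order. Ly6g and Retnlg are not analysed here. Since all but Csf3r lay under or near 4.86, a fall of the others, or a rise that stayed under 4.86, could hardly show.

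Macrophage markers did differ between the same pools. Among the monocyte markers above 4.86, only Plac8 was past 2-fold. The summed level of 12 macrophage markers was 108.43 with DEN and CA diet, 102.12 with DEN and control diet, 101.49 with CA diet alone and 93.84 with neither. For DEN on the control diet 3 of the 12 were at least 2-fold higher, namely Mpeg1, a pore-forming protein (1.89), Cd68, a lysosomal glycoprotein (1.35), and Lyz2, lysozyme (1.14). On the CA diet 2 were, Mpeg1 (1.58) and Cd68 (1.07). The Kupffer cell markers Clec4f, Timd4 and Vsig4 were named after their values were seen. For DEN on the control diet they differed by -0.00, 0.00 and 0.16. Marco, a scavenger receptor, and Cd5l of the same list differed by 0.51 and 0.67 there. On the CA diet Clec4f, Timd4 and Vsig4 were higher by 0.42, 0.53 and 0.64 without DEN. After DEN they were higher by 0.54, 0.72 and 0.81 on that diet. For the CA diet without DEN only Marco was past 2-fold (1.30). The list had medians of 0.65 and 0.43 for DEN on the control and CA diets, and of 0.67 and 0.43 for the CA diet without and after DEN. None of the 12 lay under 4.86 on every array. Of 4 measured monocyte markers, Plac8 was higher after DEN by 1.20 on the control diet and by 1.30 on the CA diet, Chil3 and F13a1 lay under 4.86 on every array, and Ccr2, the receptor for monocyte recruitment, differed by -0.11 and -0.23. The monocyte list summed to 22.64 with DEN and CA diet, 22.03 with DEN and control diet, 20.38 with CA diet alone and 19.72 with neither, and with low levels raised to 23.90, 23.70, 22.83 and 22.61. The part of these cells in the S100a8 and S100a9 differences was not tested, and in pooled tissue more cells of a type and more RNA per cell cannot be told apart.

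**Figure D2:**
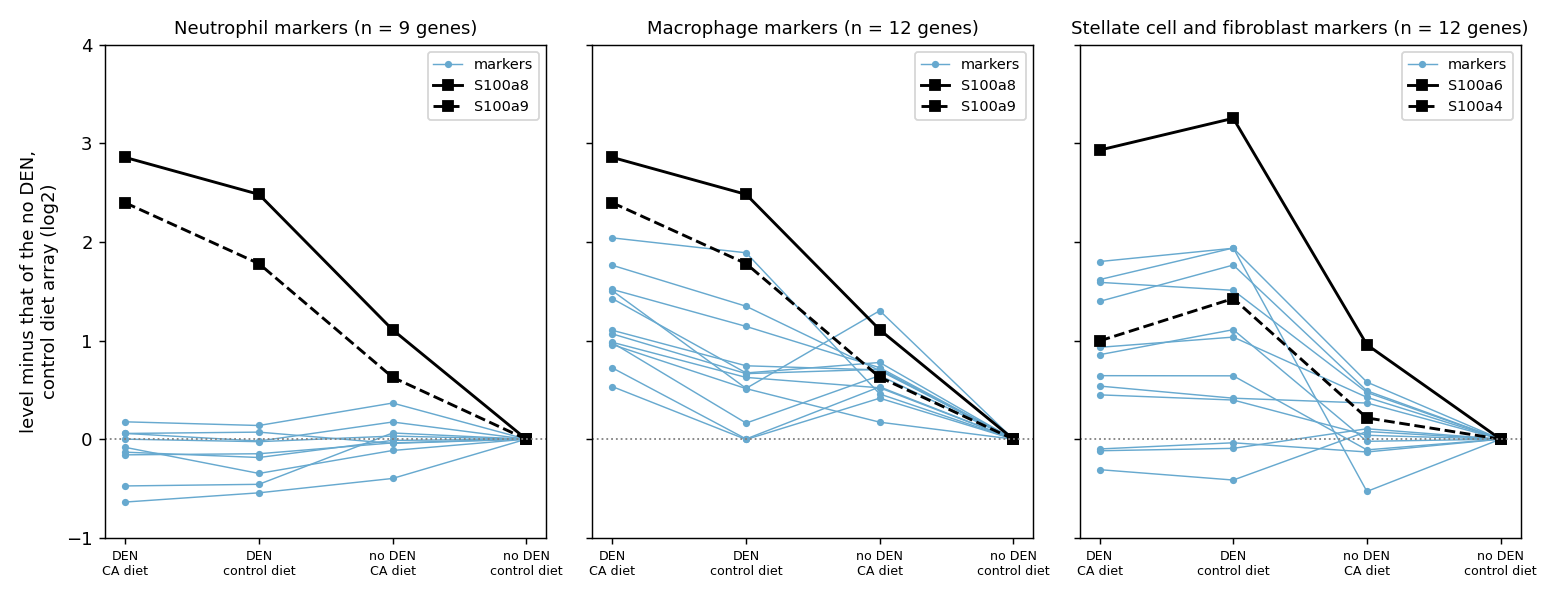
Log2 level minus that of the array without DEN on control diet (vertical axis) on the 4 arrays, with a blue line for each marker gene and black lines for S100a8 and S100a9 or S100a6 and S100a4. On the array with DEN and control diet the neutrophil markers lie between -0.54 and 0.14, under S100a8 at 2.48 and S100a9 at 1.78, while Mpeg1 among the macrophage markers stands at 1.89.

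S100a6, calcyclin, a gene of proliferating and mesenchymal cells, had the widest range of the measured S100 genes as deposited (3.25), while with low levels raised S100a9 had (2.13, against 1.91 for S100a6). It stood at 6.45 with DEN and CA diet, 6.77 with DEN and control diet, 4.47 with CA diet alone and 3.52 with neither. The arrays without DEN were both under 4.86. After DEN it was at least 3.77-fold higher on the control diet (3.25) and at least 3.01-fold higher on the CA diet (1.97). Only 52 of 18194 genes had a larger difference upwards than S100a6 for DEN on the control diet, and 148 for DEN on the CA diet. With low levels raised to 4.86 for every gene, 136 and 198 genes had a larger one. Its diet differences had opposite directions, 0.96 without DEN between a pair of levels under 4.86 and -0.32 after DEN, where it was 1.25-fold lower.

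S100a4, also called fibroblast-specific protein 1, is used as a marker of fibroblasts and is also found in some leukocytes. It stood at 4.84 with DEN and CA diet, 5.27 with DEN and control diet, 4.06 with CA diet alone and 3.85 with neither. Only the array with DEN and control diet was above 4.86. Its difference for DEN on the control diet was 1.43, which is at least 1.34-fold once the low level is raised, and 0.78 on the CA diet between levels under 4.86. After DEN the CA diet pool differed by -0.43, again with 1 of the levels under 4.86.

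Part of the stellate cell and fibroblast markers also differed with DEN. Their summed level over 12 genes was 91.77 with DEN and CA diet, 92.67 with DEN and control diet, 84.23 with CA diet alone and 82.47 with neither. On the control diet 6 of the 12 were at least 2-fold higher after DEN, among them Acta2, smooth muscle actin (1.94), Col3a1 and Col1a2, collagen chains (1.94 and 1.77), and Vim, vimentin (1.51). On the CA diet 3 of the 12 were, namely Acta2 (2.15, and -0.12 on its second probe set), Col3a1 (1.22) and Vim (1.12). With second probe sets, 4 of the 12 were past 2-fold with the control diet and 3 with the CA diet, and Acta2 was not, at 0.12 and -0.12. Others of the list, all named after their values were seen, were flat or lower after DEN: Lrat, a retinol-storing enzyme of stellate cells, differed by -0.41 with the control diet and -0.39 with the CA diet, Dcn, decorin, by -0.09 and -0.22, and Des, desmin, by -0.04 and 0.03. None of the 12 was under 4.86 on every array. For the CA diet after DEN the list had a median of -0.04. Of 7 measured T and NK cell markers, 2 were at least 2-fold higher after DEN on the control diet, and 3 were with the CA diet, but with low levels raised to 4.86 the counts were 0 and 0. The part of these cells in the S100a6 and S100a4 differences was not tested.

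S100a10, which binds annexin A2 as a dimer and does not itself bind calcium, was close to level over 3 of the arrays and lower on the fourth. It stood at 11.21 with DEN and CA diet, 11.19 with DEN and control diet, 10.49 with CA diet alone and 11.10 with neither. The array with CA diet alone was the low one. On the CA diet without DEN it was therefore 1.53-fold lower (-0.62), the largest difference downwards among the measured S100 genes for that comparison, and 234 of 18194 genes had a larger one. A second probe set gave 10.90, 10.95, 10.22 and 10.65 in the same order, a diet difference of -0.43 without DEN. The third, at 4.89, 5.00, 4.71 and 4.53, did not show it. After DEN the diet difference of S100a10 was 0.01, and for DEN on the CA diet S100a10 was 1.65-fold higher (0.72).

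S100a14, an S100 gene of epithelia, was under 4.86 on every array, at 3.36 with DEN and CA diet, 3.40 with DEN and control diet, 3.82 with CA diet alone and 3.87 with neither, and no fold is given. S100g, calbindin-D9k, a vitamin D-dependent calcium carrier of intestinal epithelium, was under 4.86 on every array as well, between 3.12 and 3.54. Of 8 measured cholangiocyte markers, Krt7, Cftr, Cldn4 and Muc1 were likewise under 4.86 on every array, while Cldn7, a claudin of tight junctions, and Sox9, a transcription factor of ductal cells, were higher after DEN by 1.49 and 1.31 on the control diet, or by 0.89 and 1.20 with low levels raised. The second probe set of Sox9 gave 0.94. Epcam, named after its values were seen, was above 4.86 on every array. It differed by -0.05 after DEN on the control diet and by 0.11 on the CA diet. Krt19 differed by 0.73 after DEN on the control diet, or by 0.09 with low levels raised. The summed cholangiocyte list was 39.01 with DEN and CA diet, 37.98 with DEN and control diet, 35.08 with CA diet alone and 33.86 with neither, and with low levels raised 42.56, 41.53, 39.83 and 39.40. Of 5 measured genes of vitamin D-dependent calcium transport, 0 were 2-fold different in the 4 comparisons by treatment and 4 were under 4.86 on every array, with the vitamin D receptor gene Vdr between 4.73 and 5.01.

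S100a1, known best as a regulator of calcium handling in heart muscle, was lower after DEN. It stood at 8.70 with DEN and CA diet, 9.01 with DEN and control diet, 9.52 with CA diet alone and 9.41 with neither. Both DEN arrays were below both arrays without DEN, and this also held for its second probe set (7.53, 7.56, 7.99 and 8.02). After DEN it was 1.32-fold lower on the control diet (-0.40) and 1.76-fold lower on the CA diet (-0.82), where the second probe set gave -0.46. S100a13, which takes part in the release of fibroblast growth factor 1, kept within a range of 0.37, at 7.91 with DEN and CA diet, 8.11 with DEN and control diet, 8.10 with CA diet alone and 8.28 with neither. Its differences in the 4 comparisons lay between -0.20 and -0.17, each within the largest difference of the hybridization controls.

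**Figure D3:**
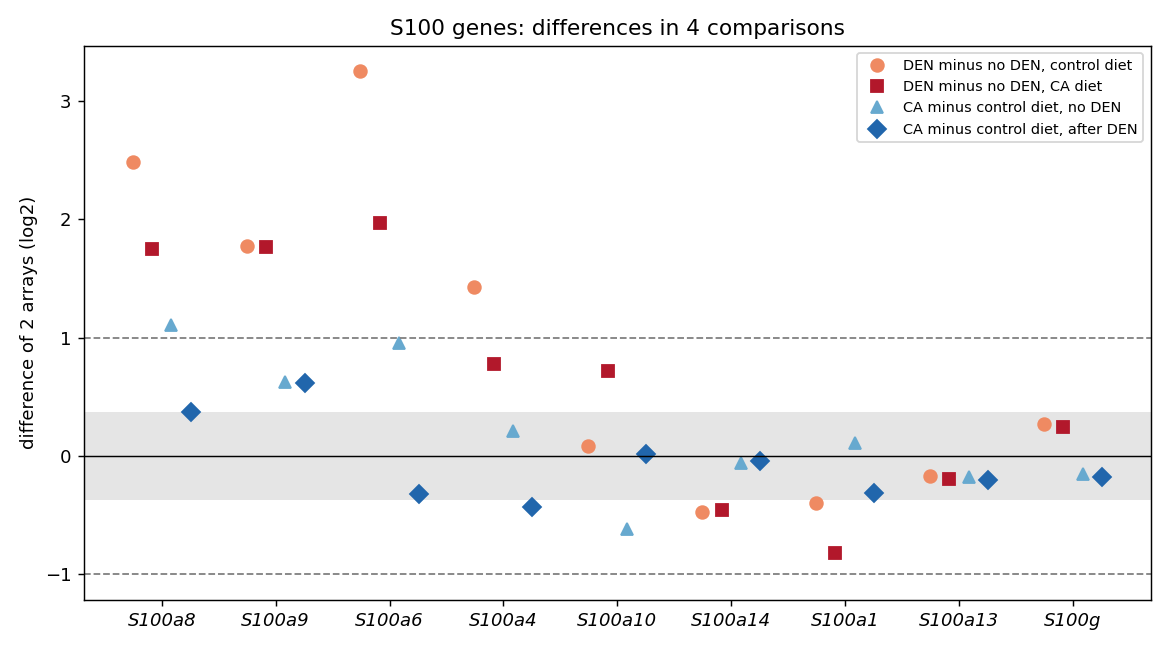
Log2 difference of 2 arrays (vertical axis) for each measured S100 gene in the 4 comparisons by treatment, with dashed lines at 2-fold and a grey band for the largest difference of a hybridization control (0.37). S100a6 at 3.25 and S100a8 at 2.48 for DEN on the control diet are the highest points, and no point lies under the lower 2-fold line.

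Counted together, 4 of 9 measured S100 genes were at least 2-fold higher after DEN on the control diet and 0 were 2-fold lower, where 3.82% of all named genes were higher and 0.632% lower by that much. With low levels raised to 4.86, S100a4 was no longer among them, which left 3. Centring the arrays on the medians of their expressed genes gave 522 named genes higher and 222 lower, in place of 695 and 115, and left the S100 count at 4. For DEN on the CA diet 3 of 9 were higher and 0 lower, against 3.51% and 1.17% of all named genes. For the CA diet without DEN 1 of 9, S100a8, was higher and 0 were lower, against 0.478% and 0.407%, and that S100a8 difference lay between levels under 4.86. For the CA diet after DEN 0 of 9 were 2-fold different, against 0.253% higher and 0.346% lower. The genes were chosen with these results known, so the counts describe them and do not show that the family stands apart. The median difference of the 9 was 0.27, 0.72, 0.11 and -0.18 in these 4 comparisons, in the same order, against medians between -0.02 and 0.00 over all named genes. The values 0.27 and -0.18 were those of S100g, a gene under 4.86 on every array. With low levels raised to 4.86 the medians of the 9 were 0.09, 0, 0 and 0.

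**Figure D4:**
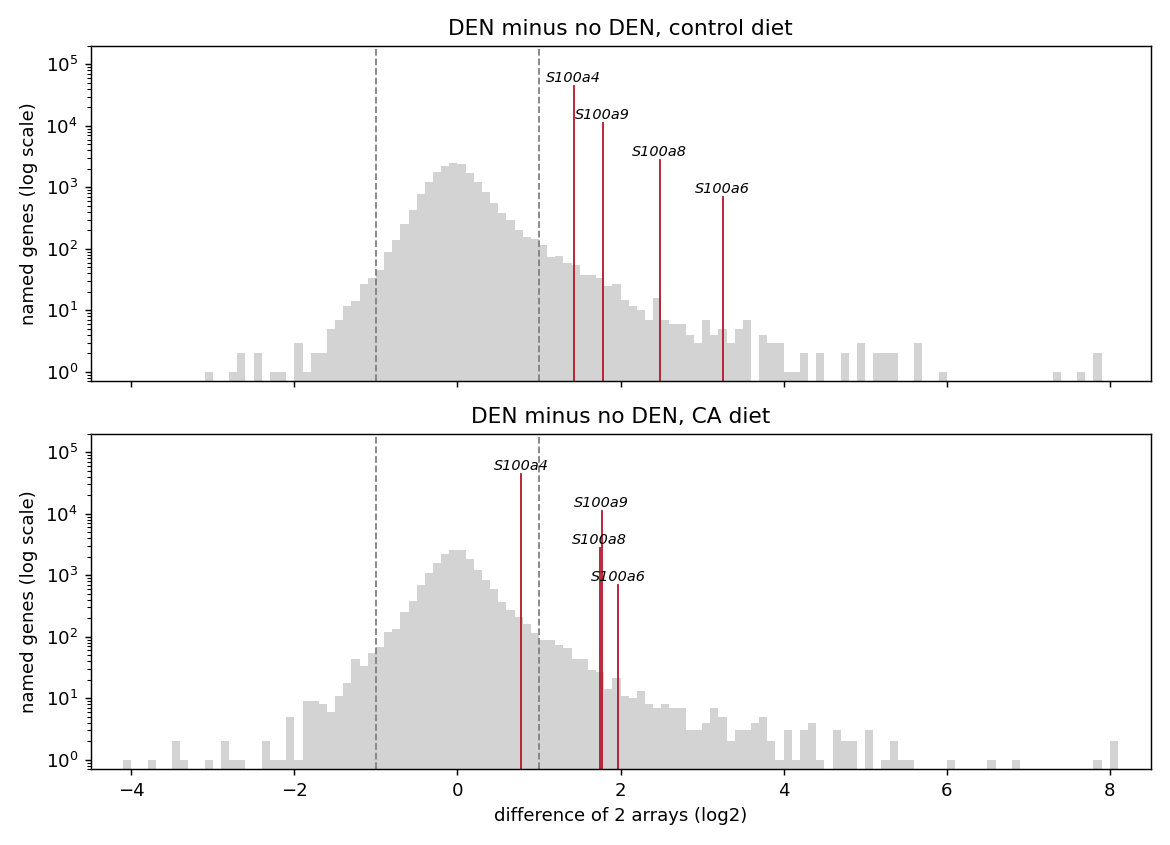
Number of named genes (vertical axis, log scale) by log2 difference after DEN (horizontal axis), for control diet above and CA diet below, with red lines for S100a6, S100a8, S100a9 and S100a4 whose heights carry no value and dashed lines at 2-fold. S100a6, S100a8 and S100a9 lie beyond 2-fold in both panels, and S100a4 does so in the upper panel only, at 1.43 against 0.78.

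The mean of S100a8 and S100a9 was set against the median of the other 7 measured genes. It was 2.13 against 0.09 for DEN on the control diet, 1.76 against 0.24 for DEN on the CA diet, 0.87 against -0.05 for the CA diet without DEN and 0.50 against -0.20 for the CA diet after DEN. Of these medians, 0.24 was the value of S100g and -0.05 that of S100a14, both genes under 4.86 on every array. The other 7 did not move as a group, since for DEN on the control diet S100a6 and S100a4 were higher and S100a1 was lower.

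The measured rest of the family showed no 2-fold difference, but only S100a16 was above 4.86 on every array. S100a3, S100a5, S100a16 and S100b were measured and 0 of these 4 were 2-fold different in any comparison. S100a3 was under 4.86 on every array, and S100b lay between 4.73 and 5.14. S100a7a and S100z are not analysed here. S100a16 was higher after DEN by 0.34 on the control diet and by 0.21 on the CA diet. S100a5, which is the gene between S100a4 and S100a6 on chromosome 3, was under 4.86 on every array and differed by -0.21 and 0.36.

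Genes for proteins that S100 proteins bind were read from a list of annexins and other partners. Of 9 measured partners, 4 were at least 2-fold higher after DEN on the control diet, and 3 were with the CA diet, and 0 were lower by that much. With the second probe set of each partner that has several, these counts were 1 and 2. Anxa2, the annexin bound by S100a10, was at 10.49 with DEN and CA diet, 10.40 with DEN and control diet, 7.19 with CA diet alone and 6.88 with neither, so that it was higher after DEN by 3.52 on the control diet and by 3.30 on the CA diet. Its second probe set gave only 0.41 and 1.11, and the mean over its probe sets 1.27 and 1.51. S100a10 itself differed by 0.09 and 0.72 in these comparisons. Anxa5, which has a single probe set, was higher by 1.63 and 1.40 and Anxa1 by 1.46 and 1.26, although the second probe set of Anxa1 gave 0.04 with the control diet and -0.0039 with the CA diet. Ahnak, a large scaffold protein bound by the S100a10 and annexin A2 complex, was higher by 1.07 on the control diet, but its second probe set gave -0.018. Cacybp, the calcyclin-binding protein, differed by 0.18 and 0.13.

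Among 10 receptors and signalling partners, 2 were at least 2-fold higher after DEN on each diet. Cd14, the co-receptor of Toll-like receptor 4, was at 9.42 with DEN and CA diet, 8.33 with DEN and control diet, 5.63 with CA diet alone and 5.29 with neither. It was the only gene of this list past 2-fold for the CA diet after DEN (1.09). Alcam, an adhesion molecule, was higher after DEN by 1.70 and 1.29. Ly96, the partner of Toll-like receptor 4 at the cell surface, was higher by 0.88 and 0.67 and Tlr2 by 0.66 and 0.62. Tlr4 itself was between 4.61 and 5.06. Ager, named after its values were seen, was between 5.37 and 5.54.

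The genes most like S100a6 and S100a8, the measured S100 genes with the widest ranges as deposited, were sought among the 11651 genes with a mean of at least 4.86, by the root mean square difference of their levels over the 4 arrays after removing each gene's mean. For S100a6 they were Rgs2, a regulator of G protein signalling (0.10), Tnfrsf12a, the receptor of the cytokine TWEAK (0.15), and Ifi27l2b (0.19). For S100a8 they were Angptl8, a secreted regulator of lipid metabolism (0.06), Dusp4, a MAP kinase phosphatase (0.09), and Lgals3, galectin 3 (0.14). S100a9 was number 16 by likeness to S100a8 (0.26) and S100a6 number 60 (0.35). These measures use levels of both genes under 4.86 on the arrays without DEN. With 4 arrays many genes share a pattern, and likeness over 4 points is a description only.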

How the data were processed

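The deposited values are log2 expression values of 4 arrays, for which the submitters' processing notes name RMA and Partek 6.5 as the authors' tools, with options not given in the sources used here. Total RNA was isolated with Trizol and labelled with a biotin kit, per the labels' protocols. RMA draws array distributions together, so a change shared by most genes would be removed. The array medians lay between 4.84 and 4.86. Signals were not counts, and the number of arrays limits the precision.

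Of 45101 probe sets, 34958 had 1 gene symbol, 932 several and 9211 none here. By gene identifier 34754 matched RefSeq (GRCm38.p6), with 0 symbols changed. Where a gene had several probe sets, that of highest 4-array mean was used. All named genes were counted, with 2-fold as the threshold and no filter on low values. The text names all S100 genes listed and, by size of difference, up to 4 genes of each other list per comparison. Further list genes, such as Csf3r, Camp and Cldn4, were named after their values were seen. The S100 genes and lists were chosen with earlier results of these data known. List genes with no probe set of 1 symbol are not analysed here. Promoters came from RefSeq, which gave 8 of the 10 genes. With 1 array per group no test was made. The script that counts 2-fold differences was tested on simulated data with known changes. Alternatives covered probe sets, normalization, low values, the threshold and an expression filter. Python 3.11.15, pandas 2.3.3, numpy 2.4.6, statsmodels 0.14.6 and matplotlib 3.10.9 were used.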

Additional observations from a re-analysis of the deposited data

Results flagged for a closer look

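The diet difference of S100a6 had opposite directions without and after DEN, 0.96 and -0.32, which gave a difference between the diet effects of -1.28. This difference was not tested, and both S100a6 levels without DEN (4.47 on the CA diet and 3.52 on control diet) were under 4.86. With low levels raised to 4.86 it was -0.32.

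A signal outside the measured genes came from probe set 1460351_at, annotated with the 3 symbols Gm12854, S100a11-ps and S100a11, so that its signal is not assigned to any of them. It stood at 8.71 with DEN and CA diet, 8.62 with DEN and control diet, 6.52 with CA diet alone and 6.44 with neither. It was 4.53-fold higher after DEN on the control diet (2.18) and 4.55-fold higher on the CA diet (2.19). Its diet differences were 0.08 without DEN and 0.08 after DEN.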

How the results depend on the processing

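Of 120 alternative values of the counts and medians in the 4 comparisons by treatment, 109 stayed close to the reported ones: within the largest difference of a hybridization control, or within 1.5 times for a count. With low values raised to 4.86, the S100a8 and S100a9 mean exceeded the median of the other S100 genes by 1.43 in place of 2.04 for DEN on the control diet and by 0.18 in place of 0.92 for the CA diet without DEN. The median S100 difference for DEN on the CA diet was then 0, and 0 S100 genes were 2-fold higher for the CA diet without DEN. With only the 6 S100 genes whose mean reached 4.86, the median was 0.93 for DEN on the control diet and 1.23 for DEN on the CA diet. At a 1.5-fold threshold 5 S100 genes were higher and 1 lower for DEN on the CA diet. There were 3 higher and 1 lower for the CA diet without DEN, and 1 higher for the CA diet after DEN. Of all named genes 7.96%, 2.02% and 1.37% were higher by that much in these comparisons, in the same order. The named genes lower by that much numbered 844, 271 and 265. On their second probe set Ahnak (-0.018, DEN on the control diet), Anxa1 (-0.0039, DEN on the CA diet) and Acta2 (-0.12, DEN on the CA diet) changed sign, and the cause was not tested. The marker and partner lists under second probe sets or raised low levels were added after seeing the data. Centring the arrays on the medians of their expressed genes shifted the median of all genes to -0.18 for DEN on the control diet, and all 45 S100 differences stayed close under it, under quantile normalization and under loess. With low values raised to 4.86, 16 of the 45 did not stay close. No paired analysis was possible because each group was 1 array, and leaving out a replicate was not possible for the same reason. The deposited values hold no detection call, so low levels limit S100a4, S100a14 and S100g most. They also limit the sizes for S100a6 and S100a8. For DEN on the control diet these went from 3.25 to 1.91 and from 2.48 to 1.34 with low values raised.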
